A study of Mus musculus with 16 samples.

Results

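Lrg1 and 8 genes of the endothelial TGF-β pathway (Tgfb1, Ltbp4, Tgfbr1, Tgfbr2, Tgfbr3, Eng, Smad2 and Smad3) were followed in RNA sequencing of brain endothelial cells (bECs). They are 9 of 37003 genes in the count table and were found by their symbols. They were chosen by name with measured values in view: Lrg1 and Ltbp4 were known to differ between MCAo and sham in these same libraries, so every MCAo against sham value of the 9 genes is given here as a description, without a p-value, and nothing is read from counts of them past the threshold in that contrast. The comparisons between genotypes and their interaction with surgery were tested.

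The 16 libraries formed 4 groups of 4, and each library pooled tissue of several adult mice of either sex. YT-iKO mice carried 1 copy of Pdgfb-iCreER-eGFP, an inducible Cre driven by the endothelial Pdgfb promoter, together with floxed Yap and Taz (Wwtr1) alleles (Yap fl/fl Taz fl/fl). CTRL mice were littermates with the same floxed alleles and no Cre transgene, and both genotypes received tamoxifen before surgery. Surgery was either sham or 30 min of middle cerebral artery occlusion (MCAo, a model of ischemic stroke) with reperfusion, and cells sorted as DAPI-, CD45- and CD31+ were taken 72 hours later. The Pdgfb promoter is also active in some other cells, and the Cre transgene carries eGFP that CTRL cells lack.

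TGF-β is secreted in a latent complex that LTBP proteins tether to the matrix. Once released, it binds the type II receptor TGFBR2, which recruits a type I receptor, either TGFBR1 (ALK5), which acts through SMAD2 and SMAD3, or in endothelium ACVRL1 (ALK1), which acts through SMAD1 and SMAD5. Endoglin (Eng), abundant on endothelial cells, and betaglycan (Tgfbr3) are coreceptors, and LRG1 is a secreted leucine-rich glycoprotein known to bind endoglin and to shift endothelial TGF-β signalling towards the ALK1 branch.

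Libraries held 11418262 to 23074547 counts. Levels are given in CPM, counts relative to library totals scaled by edgeR's TMM factors, which were computed from all 31085 genes tested and ranged from 0.743 to 1.40. These factors moved with an even background of reads, estimated from olfactory, vomeronasal and taste receptor genes, which took 0.362 to 6.77% of the counts of a library and was above 5% in YT-iKO sham replicate 3 and in YT-iKO MCAo replicates 2 and 3. TMM factors from abundant genes only (averaging 10 CPM or more) ranged from 0.938 to 1.04, and are called the abundant-gene scale below. The deleted genes matched the labels: Yap1 was 112 ± 0.511 CPM (SD, n = 4) in CTRL sham and 49.3 ± 9.70 in YT-iKO sham, and Wwtr1 was 264.7 ± 9.66 and 72.1 ± 20.9, and both genes fell in YT-iKO after either surgery (log2 fold changes of -1.18 and -1.17 for Yap1 and -1.88 and -1.88 for Wwtr1, highest adjusted p = 0.0478). All 10 endothelial markers were detected, at a summed 10124 to 21303 CPM over all libraries.

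The sequence before the start of Lrg1 and of Eng is shown because, of the 9 genes, Lrg1 had the largest difference between MCAo and sham and Eng the largest between genotypes after sham. RefSeq windows (GRCm38.p6) were used for 7 of the 9 genes, without Smad2 and Tgfbr3. Only the bases upstream of the annotated gene are printed, 5′ to 3′ on the strand of the gene. Matches to CAGAC (the SMAD-binding CAGA box, both strands, so that GTCTG is a match on the other strand) are in capitals.
Lrg1, chr17:56122002-56122196, minus strand: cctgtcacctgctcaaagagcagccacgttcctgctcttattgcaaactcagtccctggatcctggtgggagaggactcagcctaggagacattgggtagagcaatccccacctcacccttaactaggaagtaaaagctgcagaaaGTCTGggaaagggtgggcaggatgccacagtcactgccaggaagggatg
Eng, chr2:32646345-32646594, plus strand: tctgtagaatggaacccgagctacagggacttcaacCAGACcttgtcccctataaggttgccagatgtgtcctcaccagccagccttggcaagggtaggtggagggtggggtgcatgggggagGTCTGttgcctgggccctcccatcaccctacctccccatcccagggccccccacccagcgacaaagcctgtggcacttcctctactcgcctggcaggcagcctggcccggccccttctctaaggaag
Lrg1 and Eng each held 2 CAGAC matches in the full window of 250 bases before and 50 after the start, a motif that 49.6% of 32851 promoters of this length hold. None of the 7 genes had a match to GGAATG (TEAD, the DNA partner of YAP and TAZ; 14.7% of promoters), TTCNNNGAA (STAT; 8.3%) or TGANTCA (AP-1; 7.81%) in these windows.

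Lrg1 (ENSMUSG00000037095; GRCm38 chromosome 17, 56119678 to 56122001, minus strand) was near the floor of the 9 genes after sham and was far higher after MCAo in both genotypes. It stood at 3.89, 3.13, 2.95 and 7.86 CPM in the CTRL sham libraries and at 9.69, 3.37, 5.05 and 3.36 CPM in YT-iKO sham. After MCAo it was at 188.3, 69.7, 48.2 and 126 CPM in CTRL and at 265.8, 51.6, 51.2 and 261.5 CPM in YT-iKO. Every MCAo library lay above every sham library, and within each MCAo group replicates 1 and 4 were the high ones. The difference between MCAo and sham was 4.59 in CTRL (log2 scale, standard error, SE, 0.59) and 4.86 in YT-iKO (0.60). The even background stood at 1.23, 3.85, 4.604 and 1.92% of counts in CTRL MCAo replicates 1 to 4 and at 1.73, 6.77, 5.21 and 0.362% in YT-iKO MCAo, so the 2 libraries of lower background were those of higher Lrg1 in each group; the part of the background in that spread was not tested. On the abundant-gene scale the same order held, at 146, 81.3, 60.8 and 115 CPM in CTRL MCAo and 233.7, 69.6, 63.1 and 191.9 CPM in YT-iKO MCAo.

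LRG1 is also a granule protein of neutrophils, which the CD45- sort would remove, so neutrophil and monocyte markers were set beside it. The 10 markers of that list summed to 8.94 to 11.7 CPM in CTRL sham, 6.28 to 22.8 in CTRL MCAo, 9.74 to 26.8 in YT-iKO sham and 1.99 to 23.6 in YT-iKO MCAo. S100a8 had means of 0.415 CPM in CTRL sham and 0.559 in CTRL MCAo, and of 0.698 and 0.377 in YT-iKO. S100a9 had means of 0.202 and 0.458 CPM in CTRL, and of 0.395 and 0.335 in YT-iKO. In CTRL the mean of each marker of the list was higher after MCAo than after sham. In YT-iKO those of Ly6g, Ngp and Ccr2 were higher and the others lower. No marker of this list passed the test in any comparison by edgeR on either scale or by DESeq2, while limma-voom called 2 of 10 higher after MCAo in each genotype. Of the other lists, 5 fibroblast markers summed to 16.9 to 19.1 CPM in CTRL sham and 26.1 to 31.5 in CTRL MCAo, and to 17.0 to 34.8 and 26.0 to 34.0 in YT-iKO, and 5 platelet markers to 9.002 to 10.1 and 12.3 to 17.4 in CTRL, and to 9.45 to 18.7 and 14.8 to 17.98 in YT-iKO. Dcn (decorin), a fibroblast marker named after its values were seen, was at 0.777 to 1.54 CPM in CTRL sham and 2.65 to 7.87 in CTRL MCAo without overlap, and at 0.395 to 2.85 and 2.51 to 9.22 in YT-iKO. Pdgfra, of the same list, had means of 6.13 CPM in CTRL sham and 6.14 in CTRL MCAo, and of 7.34 and 6.31 in YT-iKO. Means of Col1a1, Col1a2 and Lum were higher after MCAo in both genotypes, for Col1a1 in YT-iKO at 6.29 and 6.65 CPM. The log2 difference of Dcn between MCAo and sham was 2.17 in CTRL (SE 0.54, edgeR adjusted p = 0.168) and 2.09 in YT-iKO (0.54, 0.205), and DESeq2 called it in both (adjusted p = 0.0045 and 0.00764). No marker of these lists passed the edgeR test with factors from all genes. In MCAo against sham DESeq2 called 2 fibroblast markers and 1 platelet marker higher in CTRL and 1 fibroblast marker in YT-iKO, and limma-voom 4 and 2 in CTRL and 3 and 1 in YT-iKO. The abundant-gene scale called 1 fibroblast and 1 astrocyte marker higher in CTRL. Of 5 astrocyte markers DESeq2 called 1 higher in CTRL, and limma-voom 2 in CTRL and 1 in YT-iKO. Gfap was at 4.04 to 6.11 CPM in CTRL sham and 8.77 to 13.3 in CTRL MCAo, and at 4.63 to 8.23 and 5.18 to 11.2 in YT-iKO. The 5 astrocyte markers summed to 84.7 to 99.8 CPM in CTRL sham and 84.2 to 98.8 in CTRL MCAo. In YT-iKO they summed to 56.2 to 75.0 and 65.9 to 107 CPM. In CTRL the means of Slc1a2 (20.1 and 15.2 CPM) and Gja1 (62.7 and 59.7) were lower after MCAo, and those of Aqp4 and Aldh1l1 were higher. In YT-iKO only Aldh1l1 of the list had a lower mean after MCAo. Limma-voom also called 3 of 6 pericyte markers higher in CTRL, and 3 of 10 endothelial markers lower in each genotype. The 6 pericyte markers summed to 723 to 910 CPM in CTRL sham and 533 to 1451 in CTRL MCAo. In YT-iKO they summed to 525 to 834 and 473 to 1121 CPM. The abundant-gene scale called 1 of 10 endothelial markers higher in YT-iKO. Of the microglia and macrophage markers limma-voom called 2 of 8 higher in CTRL and 1 in YT-iKO, and of the lymphocyte markers 2 of 4 and 1. It also called 1 oligodendrocyte marker higher in CTRL, and 1 neuron and 1 smooth muscle marker in YT-iKO. Between genotypes limma-voom called 2 of 6 pericyte markers lower in YT-iKO after MCAo, Kcnj8 (-0.94, adjusted p = 0.0637) and Abcc9 (-0.78, 0.0814). It also called Gfap lower after MCAo (-1.01, adjusted p = 0.00734) and Gja1 lower after sham (-0.72, 0.0655). DESeq2 and edgeR on either scale called no marker of any list between genotypes. The part of these other cells in the Lrg1 values, and in the genotype differences of the 9 genes, was not tested. In bulk cells a change in the number of cells and a change in RNA per cell cannot be told apart.

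Between genotypes Lrg1 overlapped after either surgery and did not pass the test. The log2 fold change, YT-iKO over CTRL, was 0.27 after sham (SE 0.55, edgeR quasi-likelihood test with Benjamini-Hochberg adjustment, adjusted p = 0.99) and 0.54 after MCAo (0.50, adjusted p = 1.0). The response to MCAo differed between genotypes by 0.27 (SE 0.74, adjusted p = 1.0). Leaving out YT-iKO sham replicate 1, the library with the highest sham level, turned the sham value to -0.18, and limma-voom turned the MCAo value to -0.34, while without the 3 libraries over 5% background it was 1.21 (adjusted p = 0.138), so no direction is given.

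**Figure D1:**
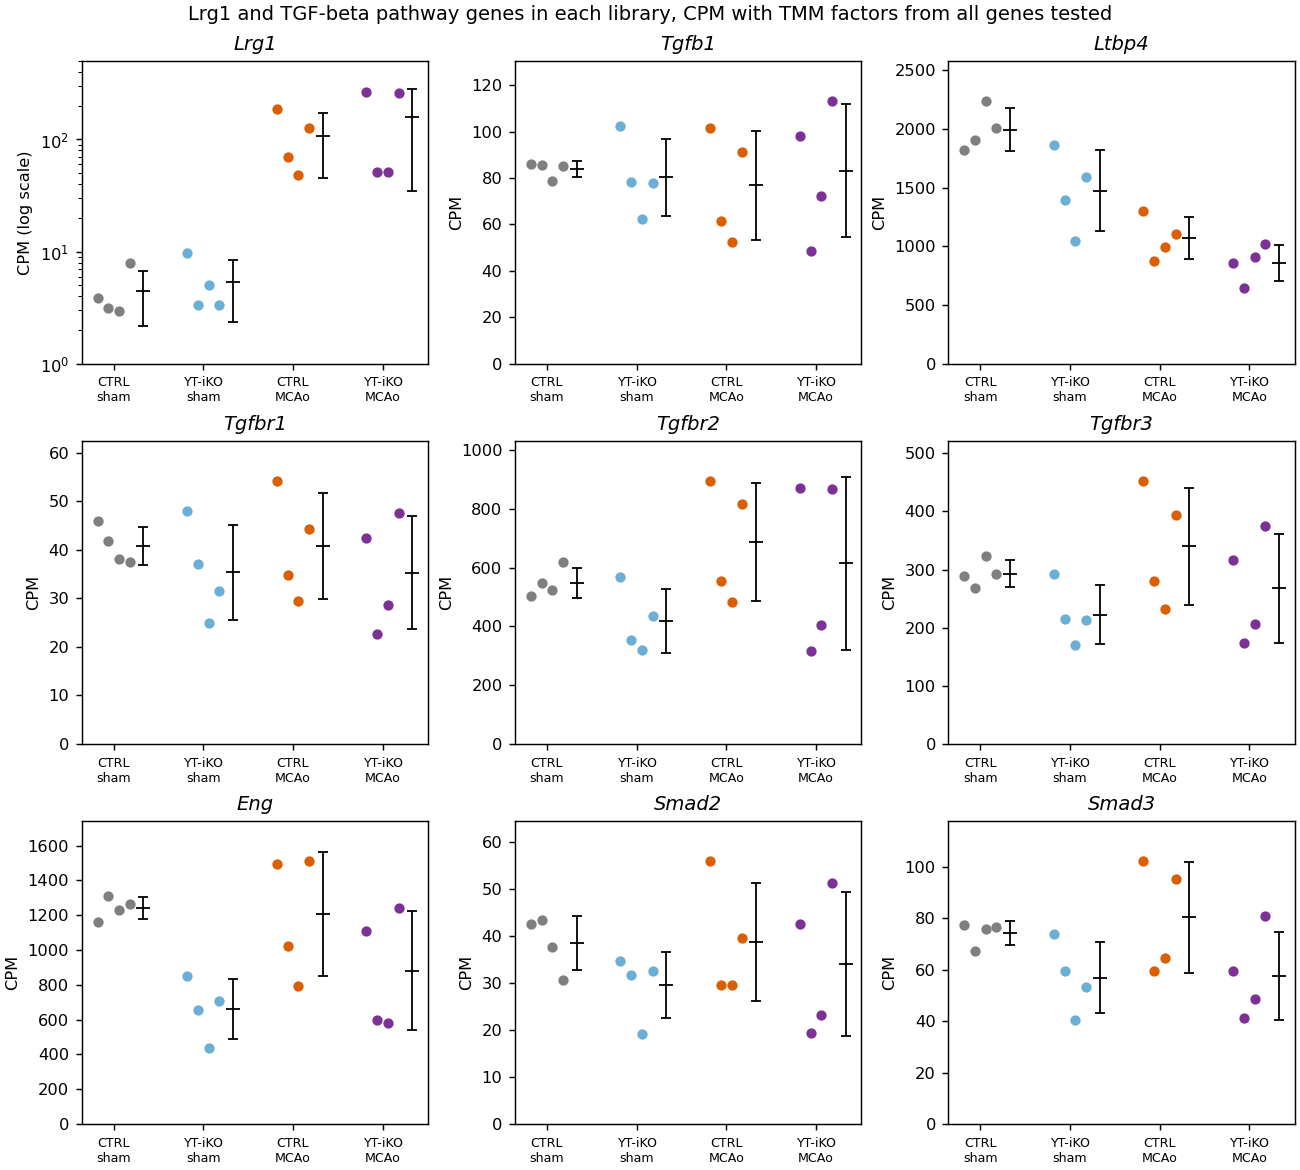
CPM of each gene in each library (points, 4 per group), with the mean and SD of the group (bars); Lrg1 is on a log axis. Lrg1 lies between 2.95 and 9.69 CPM in all sham libraries and between 48.2 and 265.8 CPM in all MCAo libraries, and the YT-iKO sham libraries lie below all CTRL sham libraries for Eng.

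Among the 9 genes, 0 of 9 passed an adjusted p of 0.1 between genotypes after sham (0.0965% of all genes tested did), 0 of 9 after MCAo (0.0708%) and 0 of 9 in the interaction (0.0%). At an unadjusted p under 0.05, 1 of 9 (Eng) differed after sham (2.16% of all genes tested), 0 after MCAo (1.49%) and 0 in the interaction (0.373%). Of the 9 genes, 8 had a log2 fold change below 0 after sham and 7 after MCAo, beside 12416 and 13822 of all 31085 genes tested. The medians of the 9 genes were -0.39 and -0.21, beside medians of 0.11 and 0.03 over all genes tested. On the abundant-gene scale the medians were -0.25 and -0.22, beside 0.30 and 0.08. The part of the scaling and of the even background in these differences was not tested. Between MCAo and sham, 1 of 9 was called in CTRL (0.216% of all genes tested) and 1 of 9 in YT-iKO (0.318%), in both cases Lrg1, on which nothing is read since this contrast chose it.

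Tgfb1 (chromosome 7, 25687002 to 25705077), the ligand, encodes TGF-β1. Its level ranged from 48.4 to 113 CPM over all libraries, with means of 83.8 ± 3.31 (SD, n = 4) in CTRL sham, 80.2 ± 16.4 in YT-iKO sham, 76.8 ± 23.4 in CTRL MCAo and 83.1 ± 28.7 in YT-iKO MCAo. The genotype log2 fold changes were -0.06 after sham and 0.11 after MCAo (SE 0.25 each; adjusted p = 0.99 and 1.0), and the first was 0.08 on the abundant-gene scale. Relative to the geometric mean of the 10 endothelial markers of the same library, a scale chosen after seeing the data, Tgfb1 was higher by 0.22 after sham and by 0.25 after MCAo (log2, exact two-sided permutation tests, p = 0.0286 each, the smallest possible, without adjustment).

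Ltbp4 (chromosome 7, 27305136 to 27337692, minus strand) encodes a latent TGF-β binding protein of the matrix, and was lower after MCAo in both genotypes. It was at 1817.5, 1909.7, 2241 and 2011 CPM in CTRL sham, and at 1298, 876, 998 and 1109 CPM in CTRL MCAo. In YT-iKO it was at 1867, 1392, 1047 and 1593 CPM after sham, and at 857, 648, 910 and 1016 CPM after MCAo. All 4 MCAo libraries lay below all 4 sham libraries in each genotype, with a log2 difference of -0.90 in CTRL (SE 0.25) and -0.78 in YT-iKO (0.25). Lrg1 and Ltbp4 were the 2 of 9 genes whose sham and MCAo groups did not overlap in CTRL (4.14% of all genes tested) and in YT-iKO (1.28%). Between genotypes the log2 fold change was -0.44 after sham (SE 0.25) and -0.32 after MCAo (0.25), with adjusted p of 0.99 and 1.0.

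The signalling receptors Tgfbr1 (chromosome 4, 47353222 to 47414931), the type I receptor, and Tgfbr2 (chromosome 9, 116084293 to 116175360, minus strand), the type II receptor, stood at very different levels. Tgfbr1 ranged from 22.6 to 54.3 CPM over all libraries, with a genotype log2 fold change of -0.21 after sham and of -0.21 after MCAo, and its groups overlapped in each comparison. Tgfbr2 was at 502, 547.5, 525 and 621 CPM in CTRL sham and at 566.7, 353, 320.0 and 435 CPM in YT-iKO sham. After MCAo it was at 896, 554, 483 and 817 CPM in CTRL and at 869, 315, 406 and 866.5 CPM in YT-iKO, where replicates 1 and 4 were again the high ones. Its genotype log2 fold change was -0.39 after sham (SE 0.31, adjusted p = 0.99) and -0.16 after MCAo (0.31, adjusted p = 1.0). MCAo and sham differed by 0.33 in CTRL and by 0.55 in YT-iKO (SE 0.31 each), and the groups overlapped in both genotypes. With abundant-gene factors the CTRL groups did not overlap, at 469 to 592 CPM after sham and 609.6 to 742 CPM after MCAo (0.39, SE 0.16).

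Endoglin, Eng (ENSMUSG00000026814; chromosome 2, 32646595 to 32682669, with 61 bases of exon shared with Fpgs on the other strand), had the largest genotype difference of the 9 genes after sham. It was at 1161, 1308, 1230.2 and 1262 CPM in CTRL sham and at 850.4, 655, 434 and 706 CPM in YT-iKO sham. The highest YT-iKO library was below the lowest CTRL library, as for 1 of the 9 genes and for 3.85% of all genes tested. The log2 fold change was -0.91 (SE 0.30, unadjusted p = 0.00619), and the test did not call it (adjusted p = 0.99; 0.0057 to 1.0 over the alternatives). On the abundant-gene scale the values were 1085, 1223, 1126 and 1204 CPM in CTRL sham and 767, 608, 582 and 743 CPM in YT-iKO sham, with a log2 fold change of -0.78 (SE 0.12), and there Eng fell with an adjusted p of 0.0057. It was the 1 of 9 genes called on that scale (0.37% of all genes tested), and Eng and Ltbp4 were the 2 of 9 whose groups did not overlap on it (4.49%). Relative to the 10 endothelial markers, Eng was lower by 0.65 on the log2 scale (exact two-sided permutation test, p = 0.0286). The even background was 6.68% of counts in YT-iKO sham replicate 3, the lowest library for Eng, and at most 0.393% of the counts of Eng in any library. The call was also made by DESeq2 (adjusted p = 0.0863), limma-voom (0.00907), a model of the 2 sham groups alone (0.0407), after the background was taken off (0.0226) and without the 3 libraries over 5% background (0.0527). The list of genes that the study itself reports for this contrast, from DESeq2 at an adjusted p under 0.1, does not hold Eng.

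After MCAo, Eng was at 1495, 1020.4, 794 and 1513 CPM in CTRL and at 1109, 596, 582.5 and 1239.8 CPM in YT-iKO, and the groups overlapped. The log2 fold change was -0.45 (SE 0.30, edgeR adjusted p = 1.0; 0.0192 to 1.0 over the alternatives), and of these only limma-voom called it (-0.75, adjusted p = 0.0192). Without the 3 libraries over 5% background the value was -0.16 (adjusted p = 0.524), and leaving out 1 library gave -0.68 to -0.30. Relative to the 10 endothelial markers it was lower by 0.33 on the log2 scale (exact two-sided permutation test, p = 0.0286), where the same test in CPM with factors from all genes gave p = 0.229. The interaction was 0.46 (SE 0.42, adjusted p = 1.0), so that the genotype difference was not shown to differ between sham and MCAo. On the abundant-gene scale CTRL MCAo lay at 1002 to 1375 CPM and YT-iKO MCAo at 718 to 975 CPM, without overlap.

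Betaglycan, Tgfbr3 (chromosome 5, 107106570 to 107289629, minus strand, with 297 bases of exon shared with Gm43422), ranged from 170.3 to 453 CPM. Its log2 fold change was -0.40 after sham (SE 0.27, adjusted p = 0.99) and -0.34 after MCAo (0.27, adjusted p = 1.0). Relative to the 10 endothelial markers Tgfbr3 differed by -0.12 after sham and -0.21 after MCAo (log2, exact two-sided permutation tests without adjustment, p = 0.171 and 0.0286).

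Smad2 (chromosome 18, 76241580 to 76310963) and Smad3 (chromosome 9, 63646767 to 63757994, minus strand) encode the SMADs that TGFBR1 phosphorylates. Smad2 ranged from 19.1 to 56.1 CPM, and its genotype log2 fold changes were -0.38 after sham and -0.18 after MCAo (SE 0.28 each; adjusted p = 0.99 and 1.0). Smad3 was at 102, 59.4, 64.6 and 95.2 CPM in CTRL MCAo and at 59.3, 41.4, 48.4 and 80.9 CPM in YT-iKO MCAo, and these groups overlapped. Its log2 fold change was -0.39 after sham (SE 0.24, adjusted p = 0.99) and -0.48 after MCAo (0.24, adjusted p = 1.0; 0.0121 to 1.0 over the alternatives). Relative to the 10 endothelial markers Smad3 differed by -0.11 after sham and -0.33 after MCAo (log2, exact two-sided permutation tests without adjustment, p = 0.229 and 0.0286). On the abundant-gene scale Smad3 was at 79.5, 69.3, 81.5 and 86.4 CPM in CTRL MCAo and at 52.2, 55.7, 59.7 and 59.4 CPM in YT-iKO MCAo, without overlap, and fell with an adjusted p of 0.0121. It was the 1 of 9 genes called after MCAo on that scale (0.582% of all genes tested), while Smad3, Eng and Tgfbr3 were the 3 of 9 whose groups did not overlap (3.21%). With factors from all genes, 0 of 9 had groups that did not overlap after MCAo (0.981%).

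**Figure D2:**
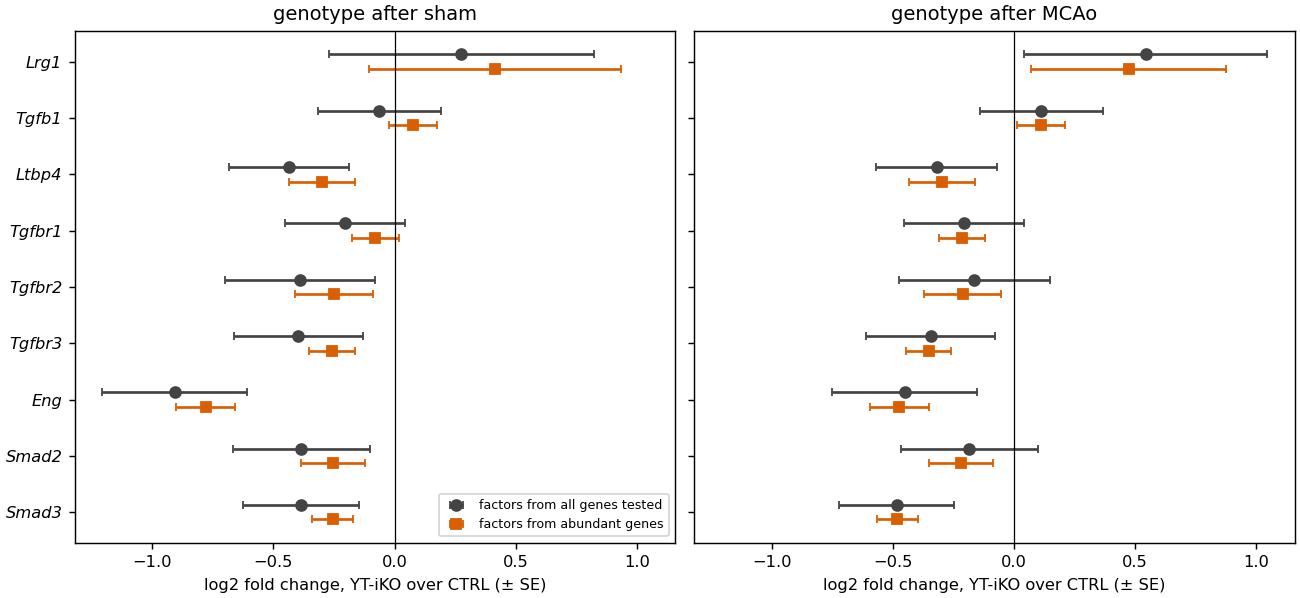
Log2 fold change of YT-iKO over CTRL for each gene after sham (left) and after MCAo (right) with its SE, for TMM factors from all genes tested (circles) and from abundant genes (squares). Errors are smaller with factors from abundant genes, and Eng after sham (-0.91 and -0.78) lies farthest from 0.

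Ratios of genes within a library do not depend on the scaling factor. The ratio of Eng to Tgfbr2 in counts per kb of exon was 4.67, 4.83, 4.74 and 4.11 in CTRL sham and 3.04, 3.75, 2.74 and 3.28 in YT-iKO sham. The groups did not overlap, and the log2 ratio was 2.20 ± 0.11 in CTRL (SD, n = 4) and 1.67 ± 0.19 in YT-iKO, a difference of -0.53 (exact two-sided permutation test, p = 0.0286, the smallest that 70 assignments of 4 and 4 libraries allow; 0.114 adjusted over the 8 ratio tests made). The ratio of Tgfbr3 to Eng was 0.153, 0.127, 0.162 and 0.143 in CTRL sham and 0.213, 0.202, 0.243 and 0.187 in YT-iKO sham, without overlap, and its log2 value differed by 0.53 (exact permutation test, p = 0.0286, adjusted p = 0.114). Both ratios hold Eng, so they are not separate results. After MCAo the log2 ratio of Eng to Tgfbr2 differed by -0.23 (exact permutation test, p = 0.143) and that of Tgfbr3 to Eng by 0.12 (p = 0.286).

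The ratio of Smad3 to Smad2 differed by -0.01 on the log2 scale after sham (exact permutation test, p = 0.971) and by -0.24 after MCAo (p = 0.257). That of Tgfbr1 to Tgfbr2 differed by 0.18 after sham and 0.03 after MCAo (exact permutation tests, p = 0.371 and 0.8). Between MCAo and sham, given as a description, the log2 ratio of Tgfbr1 to Tgfbr2 differed by -0.32 in CTRL and by -0.47 in YT-iKO, with values of -3.42 ± 0.25 (SD, n = 4) in CTRL sham and -3.74 ± 0.09 in CTRL MCAo.

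**Figure D3:**
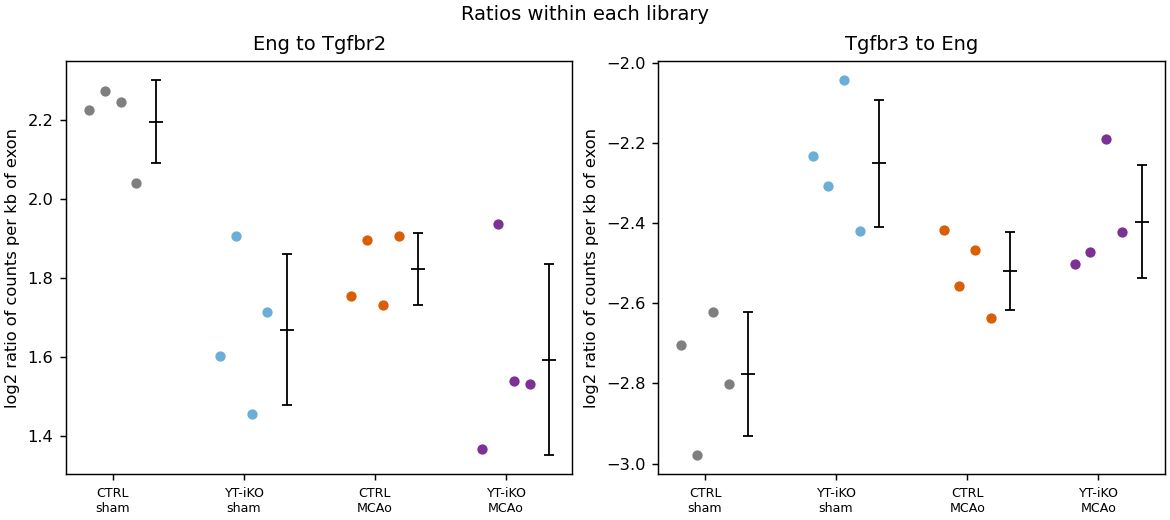
Log2 ratio of counts per kb of exon of Eng to Tgfbr2 (left) and of Tgfbr3 to Eng (right) in each library (points), with the mean and SD of each group of 4 (bars). After sham the YT-iKO libraries lie at 1.46 to 1.91 and the CTRL libraries at 2.04 to 2.27 for Eng to Tgfbr2.

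Per length of exon, Ltbp4 (309 ± 28.2 CPM per kb, SD, n = 4) and Eng (306 ± 15.3) were the 2 highest of the 9 genes in CTRL sham, and their ranges overlapped. Tgfbr2 (67.0 ± 6.27), Tgfbr3 (44.8 ± 3.47), Tgfb1 (16.6 ± 0.657), Smad3 (13.4 ± 0.863) and Tgfbr1 (6.25 ± 0.606) followed, each with a range apart from that of its neighbours. Smad2 (4.39 ± 0.660) and Lrg1 (3.17 ± 1.64) were lowest and overlapped. In YT-iKO sham the same genes led, with Ltbp4 at 228 ± 53.4 and Eng at 163 ± 42.7 CPM per kb. In CTRL MCAo, Lrg1 stood at 76.8 ± 44.6 CPM per kb, in the range of Tgfbr2 (84.0 ± 24.4) and Tgfbr3 (51.9 ± 15.5), and Eng (298 ± 88.2) was above Ltbp4 (166 ± 27.7) in 4 of 4 libraries. In YT-iKO MCAo, Lrg1 was at 112 ± 87.0 CPM per kb, and its range overlapped those of Ltbp4 (133 ± 24.0) and Tgfbr2 (75.0 ± 36.1).

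**Figure D4:**
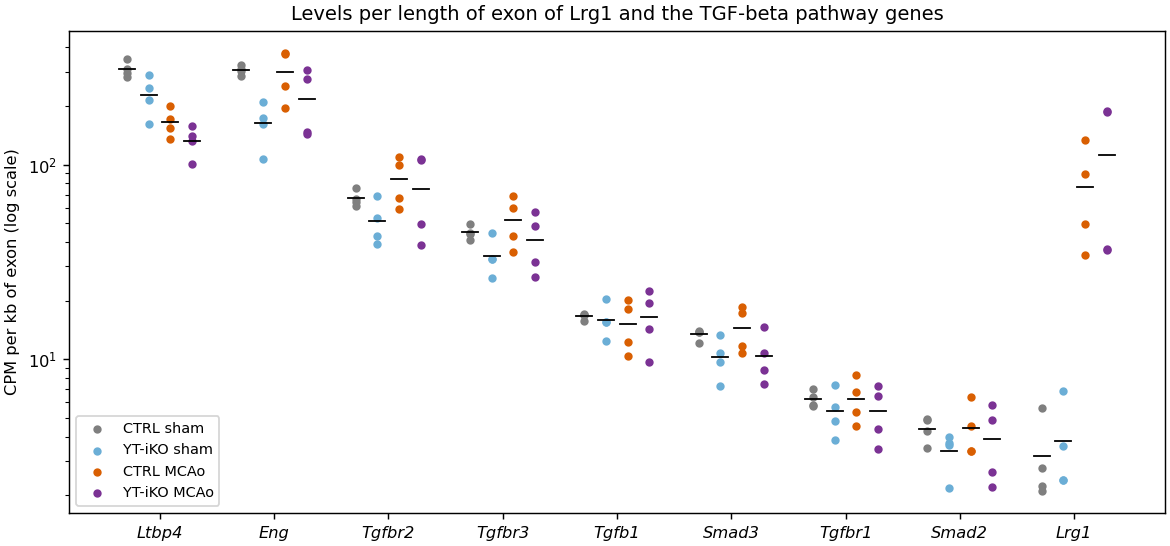
CPM per kb of exon (log axis) of each gene in each library (points; black lines are group means), with genes in the order of their means in CTRL sham. Lrg1 moves from 3.17 CPM per kb in CTRL sham to 76.8 in CTRL MCAo, and Ltbp4 from 309 to 166.

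The other genes of the pathway were taken from a list of 61 in 5 role groups, all of them tested. After sham, 0 of 61 were called between genotypes by edgeR (4 at an unadjusted p under 0.05, beside 2.16% of all genes tested), with 1 called by DESeq2 and 2 by limma-voom, which called 81 and 143 of all genes where edgeR called 30. After MCAo, 1 of 61 fell in YT-iKO and none rose, where 0.0708% of all genes tested were called. In the interaction 0 of 61 were called (0 at an unadjusted p under 0.05, and 0 by DESeq2 and by limma-voom). Between MCAo and sham, 1 of 61 rose in CTRL (0.216% of all genes tested were called) and 1 of 61 in YT-iKO (0.318%). At an unadjusted p under 0.05 there were 13 in each, beside 3.5% and 3.01% of all genes tested. Medians over the 61 genes were -0.10 after sham and -0.03 after MCAo between genotypes, and 0.04 in CTRL and 0.09 in YT-iKO between MCAo and sham, beside 0.07 and -0.02 over all genes tested for the latter pair. On the abundant-gene scale the genotype medians turned to 0.04 and 0.02, beside 0.30 and 0.08 over all genes tested. Those between MCAo and sham were 0.11 and 0.05 there, beside 0.21 and -0.02.

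Cdkn2b, a target that encodes the cell cycle inhibitor p15INK4b, was the gene that fell in YT-iKO after MCAo. It was at 20.2, 18.5, 16.5 and 22.3 CPM in CTRL MCAo and at 10.2, 6.77, 10.6 and 10.03 CPM in YT-iKO MCAo, without overlap, a log2 fold change of -1.04 (SE 0.19, edgeR adjusted p = 0.046; 0.000109 to 0.463 over the alternatives). After sham it was at 21.3, 21.7, 23.8 and 24.5 CPM in CTRL and at 16.1, 10.6, 10.2 and 13.2 CPM in YT-iKO, also without overlap, a log2 fold change of -0.86 (SE 0.19, adjusted p = 0.172; 0.00794 to 0.653 over the alternatives). No test showed a difference between these values, the interaction being -0.18 (SE 0.27, adjusted p = 1.0).

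Fn1, the target with the highest level per length (fibronectin), was at 3894 ± 409 CPM (SD, n = 4) in CTRL sham and 7031 ± 2170.4 in CTRL MCAo, with a log2 fold change of 0.85 (SE 0.32, adjusted p = 1.0) and, in YT-iKO, of 1.19 (0.32, adjusted p = 0.254). MCAo and sham libraries of Fn1 did not overlap in either genotype, and on the abundant-gene scale it rose in both (edgeR adjusted p = 0.00143 and 0.000383).

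In the contrasts of MCAo with sham, limma-voom called 7538 of all 31085 genes in CTRL and 5626 in YT-iKO, DESeq2 222 and 267, the abundant-gene scale 554 and 534, and the 2-group edgeR model 623 and 17. With the background off 387 and 382 were called, without the 3 libraries over 5% background 599 and 1397, and with the replicate number as a block 119 and 132. The counts by role are to be read beside these. Of the ligands and latency genes, 0 of 13 were called in any comparison by the main edgeR model (4 groups, 16 libraries, counts as deposited, no block, factors from all genes). In MCAo against sham the 2-group model called 2 in CTRL, the abundant-gene scale 1 in each genotype, DESeq2 1 in CTRL and 2 in YT-iKO, and limma-voom 6 and 3. With the background off 1 was called in each genotype, without the 3 libraries 2 in CTRL and 3 in YT-iKO, and with the replicate block 1 in each. Tgfb2, the highest of them per length, was at 178 ± 22.7 CPM in CTRL sham and 106 ± 29.0 in CTRL MCAo (log2 fold change -0.75, SE 0.27, adjusted p = 0.887), and Lrrc32 (GARP, which anchors latent TGF-β to the cell surface) was at 29.1 ± 2.82 and 59.5 ± 24.0 CPM (1.03, SE 0.30, adjusted p = 0.426; 0.00555 on the abundant-gene scale). Of the receptors, 0 of 7 were called in any comparison by that model, on either scale, or by DESeq2, and limma-voom called 4 in CTRL and 1 in YT-iKO between MCAo and sham. Acvrl1 (ALK1), the highest, was at 658 ± 53.2 CPM in CTRL sham and 523 ± 95.1 in YT-iKO sham (log2 fold change -0.33, SE 0.28, adjusted p = 0.99), and Acvr1b, with the lowest p of the group, differed by 0.47 between MCAo and sham in YT-iKO (SE 0.25, adjusted p = 1.0).

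Of the SMADs and partners, 0 of 9 were called in any comparison by the same main edgeR model, where the 2-group model called 1 between MCAo and sham in CTRL, DESeq2 and the abundant-gene scale each called 1 between MCAo and sham in each genotype, and limma-voom 5 in CTRL, 2 in YT-iKO and 1 between genotypes after MCAo. In MCAo against sham 1 was called in each genotype with the background off, and 1 in CTRL and 2 in YT-iKO without the 3 libraries over 5% background. Smad4, the common partner of the other SMADs and the highest of the group, was at 113 ± 3.61 CPM in CTRL sham and 105 ± 29.1 in CTRL MCAo. Smad1, an ALK1-branch SMAD, was at 82.1 ± 5.91 CPM in CTRL sham and 152 ± 43.7 in CTRL MCAo without overlap (log2 fold change 0.89, SE 0.27, adjusted p = 0.497), and was called on the abundant-gene scale (0.96, adjusted p = 0.00015). Of the inhibitors, 0 of 14 were called in any comparison by this main edgeR model, where the 2-group model called 2 between MCAo and sham in CTRL, the abundant-gene scale called 1 between MCAo and sham in each genotype and 1 between genotypes after MCAo, DESeq2 1 between MCAo and sham in YT-iKO, and limma-voom 7 in CTRL and 3 in YT-iKO between MCAo and sham. With the background off 1 was called in YT-iKO in that contrast. Without the 3 libraries over 5% background 1 was called in each genotype in that contrast, and 1 between genotypes after MCAo (474 of all genes). The inhibitory Smad7, the highest of them, was at 268 ± 32.9 CPM in CTRL sham and 229 ± 46.1 in CTRL MCAo, and Fkbp1a, which binds TGFBR1 and holds it inactive, differed by 1.29 between MCAo and sham in YT-iKO (SE 0.39, adjusted p = 0.448; 0.0600 on the abundant-gene scale).

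Among 9131 other genes that averaged 10 CPM or more, those most like Lrg1 in log2(CPM + 1) over the 16 libraries were Ackr1 (Pearson r = 0.99), Atp8b1 (0.98), Synpo (0.98), Tmem176a (0.98) and Ace (0.98), beside a median r of 0.15. With abundant-gene factors they were Tmem176a, Ackr1, Ptgfrn, B3gnt3 and Ace (r = 0.99 each, median -0.03). Ackr1, the chemokine receptor that marks venules, was at 2.47 ± 0.569 CPM (SD, n = 4) in CTRL sham and 34.4 ± 23.6 in CTRL MCAo, and Ace, the angiotensin-converting enzyme, at 65.1 ± 4.91 and 391 ± 185. In deviations from the 4 group means, the most like were Mfge8, Lgmn, Tmem176a, Ildr2 and Nectin2 (r = 0.96, 0.96, 0.96, 0.96 and 0.96), where the median r over all genes compared was 0.71. On the abundant-gene scale that median was 0.01, and Ildr2, Lgmn and Tmem176a were among the 5 most like on both scales. The genes most like Eng over all libraries were Sptan1 and Cbx5 (r = 0.97 and 0.96, median 0.64; Cp and Vash1 on the abundant-gene scale, 0.94 and 0.93, median -0.02), and those most like Ltbp4 were Gm45552 and Slc19a3 (0.96 and 0.95, median 0.40; the same pair on the abundant-gene scale, 0.94 and 0.94, median 0.03). With factors from all genes, those most like the other 6 genes had r of 0.97 to 0.99, beside medians of 0.66 to 0.78, for Tgfb1 (Atp2a2, Gtf2a1), Tgfbr1 (Lims1, Tnpo1), Tgfbr2 (Ehd4, Cmtm6), Tgfbr3 (Cbx6, Ccni), Smad2 (Far1, Lsm14a) and Smad3 (Rassf9, Ppp2r5a). With abundant-gene factors, where the medians were -0.02 to 0.01, they had r of 0.84 to 0.97, for Tgfb1 (Kctd12, Ccng1), Tgfbr1 (Lims1, Rab21), Tgfbr2 (Ogdh, Lmtk2), Tgfbr3 (Cbx6, Eif3f), Smad2 (Far1, Pdcd6) and Smad3 (Ppp2r5a, Rassf9). These r are descriptions over libraries that share groups and scaling.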

How the data were processed

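RNA of sorted bECs was made into libraries with the SMART-Seq Ultra Low Input RNA kit, and the authors mapped paired-end reads to GRCm38 with STAR 2.7.8a (version from the submitters' processing notes, which also name DESeq2). The authors deposited whole-number read counts per gene, not normalized. The counting program, its strand setting and its handling of reads with several positions are not given in the sources used here. Total counts per library ranged from 11418262 to 23074547, which sets the counting error.

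From these counts, edgeR 4.0.16 (R 4.3.3) fitted the 4 groups in 1 quasi-likelihood model with TMM factors, after filterByExpr (minimum count 10, minimum total 15; 31085 of 37003 genes), with Benjamini-Hochberg adjustment over all genes tested and a threshold of 0.1. Alternatives were DESeq2 1.42.0, limma-voom with quality weights (limma 3.58.1), other factors, filters and samples, the replicate number as a block, and removal of an even background measured on 1466 receptor genes. The analysis was tested on simulated data. Single values were compared by exact permutation of the 8 libraries of 2 groups on log2(CPM + 1). The 18 permutation tests of the 9 genes between genotypes, on each scale, are not adjusted. Exon lengths and overlaps came from GENCODE M21, in which 36861 of 37003 genes were found. Libraries of a group differed by more than sampling noise. The labels do not say that replicates are separate animals, and each is a pool, so p-values measure the spread between these libraries. The 9 genes and the lists were chosen with earlier results of these data known. Named genes were the 9 genes, pathway genes called in any comparison, in each role group the gene with the highest level per length and that with the lowest p, Yap1 and Wwtr1, and the genes most like each of the 9. A pathway gene that this rule would name is not reported here.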

Additional observations from a re-analysis of the deposited data

Results flagged for a closer look

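In 52 groups of 4 values tested for a library far from the others (9 genes and 4 ratios in 4 groups), 2 stood apart, and about 1 in 20 such groups would by chance. Tgfb1 was at 78.9 CPM in CTRL sham replicate 3, while the other 3 libraries lay at 85.0 to 85.9 CPM. Smad3 was at 67.2 CPM in CTRL sham replicate 2, while the others lay at 75.9 to 77.4 CPM.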

How the results depend on the processing

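The table of 9 genes was refitted with DESeq2, RLE factors, factors from abundant genes, no filter, a CPM filter (over 1 in 4 or more libraries), the 2 groups compared alone, limma-voom, the background taken off and each library left out, and, chosen after seeing the data, without the 3 libraries over 5% background. Of the 9 genes, 1 was called after sham by DESeq2, abundant-gene factors, the 2-group model, limma-voom, background off and without the 3 libraries (main 0), fits that called 81, 115, 126, 143, 104 and 91 of all genes (main 30), and 1 after MCAo between genotypes by abundant-gene factors and background off (Smad3; 181 and 143 of all genes) and by limma-voom (Eng; 257) (main 0 and 22). Between MCAo and sham, the contrast that chose the genes and from which nothing is read, 2 were called in CTRL by DESeq2, abundant-gene factors, the CPM filter, the 2-group model, background off and without the 3 libraries, and 3 by limma-voom (main 1), fits that called 222, 554, 121, 623, 387, 599 and 7538 of all genes (main 67). In YT-iKO 2 were called by DESeq2, abundant-gene factors, the CPM filter, limma-voom and background off, and 4 without the 3 libraries (main 1), beside 267, 534, 137, 5626, 382 and 1397 of all genes (main 99). Of the 61 pathway genes, 1 was called after sham by DESeq2, the CPM filter, background off and without the 3 libraries, and 2 by the 2-group model and limma-voom (main 0). These fits called 81, 41, 104, 91, 126 and 143 of all genes (main 30). After MCAo 2 were called by abundant-gene factors and without the 3 libraries, and 3 by limma-voom (main 1), fits that called 181, 474 and 257 of all genes (main 22). Between MCAo and sham the pathway count (main 1) was 7 in CTRL by DESeq2, 6 by abundant-gene factors, 2 by the CPM filter, 10 by the 2-group model, 31 by limma-voom, 5 with background off and 10 without the 3 libraries, and in YT-iKO 9, 7, 2, 18 (limma-voom), 8 (background off) and 13 (without the 3 libraries). Leaving out 1 library moved the pathway counts over 0 to 1, 0 to 2, 1 to 4 and 1 to 6 in these comparisons, and no count of the 9 genes. The cause was not tested.

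Some directions between genotypes turned. Tgfb1 after sham became 0.077 with abundant-gene factors, 0.013 with background off and 0.029 without the 3 libraries (-0.181 to 0.045 leaving out 1 library), and after MCAo -0.073 to 0.274 leaving out 1. Lrg1 spanned -0.18 to 0.70 after sham leaving out 1, and was -0.34 after MCAo and -0.67 in the interaction by limma-voom (-0.23 to 0.66 leaving out 1). Without the 3 libraries the genotype values after MCAo were 0.015 for Tgfbr1, 0.21 for Tgfbr2 (-0.481 to 0.024 leaving out 1) and 0.15 for Smad2, where the median of all genes moved to -0.42, and the interaction of Ltbp4 was -0.032 (-0.053 to 0.20 leaving out 1). The sign of Tgfb1 after sham also turned in the permutation tests (p = 0.314 on the abundant-gene scale and 0.0286 relative to endothelial markers, exact tests), as did that of Tgfbr1 relative to these markers (p = 0.571), and the ratio of Smad3 to Smad2 after sham was 0.040 with background off. Lrg1 in MCAo against sham kept its direction, at 4.19 to 4.67 in CTRL and 3.52 (limma-voom) to 5.50 (without the 3 libraries) in YT-iKO, libraries left out 1 at a time aside.

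In the interaction edgeR, DESeq2 and limma-voom each called 0, with 116, 154 and 1368 genes at an unadjusted p under 0.05. The labels tie no replicate number to a shared animal or day, and the libraries did not meet the rule for pairs, a correlation above 0.1 in every one (median correlation of deviations 0.155 over 24 pairs of the same number, 13 of them above 0.1, and -0.0854 over 72 other pairs, 1000 genes). With the replicate number as a block, 1 pathway gene was called after sham, 3 in CTRL and 4 in YT-iKO between MCAo and sham, beside 40, 119 and 132 of all genes, and no count of the 9 genes changed. Lrg1 had only 38 counts in its lowest library, which limits its sham values.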
